A study of Mus musculus with 6 samples.

Results

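The genes described here were near silent in Control hematopoietic stem cells (HSC) and were read in CDKO HSC of the mouse. A gene was a member of the set if its mean over the CDKO libraries was at least 3 counts per 1000000 counted reads (CPM) and its mean over the Control libraries was under 0.5 CPM. Of the 24062 genes in the deposited table, 86 passed both thresholds. Of these, 5 were set aside by name (Pde10a, Nrp1, Itga1, Etv4 and Ifi204), which left 81 members. Rows with a date in place of a gene symbol, 12 in all, were not considered. The members are 0.718% of the 11277 genes with a mean of at least 3 CPM in CDKO libraries. Because the difference between the groups chose them, their levels are given as a description, with no test.

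RNA was sequenced from HSC of 2 groups of mice, with 3 libraries in each. CDKO animals carried Rosa26-ERt2 together with floxed Nr4a1 (Nr4a1 fl/fl) and no Nr4a3 (Nr4a3-/-). Control animals had the same floxed Nr4a1 and the same lack of Nr4a3 but not the Rosa26-ERt2 construct. By background this construct is a Cre recombinase that tamoxifen activates, placed at a locus active in most cell types. Both groups received tamoxifen at 120 mg per kg in 4 daily injections, the cells were sorted on day 5, and every library held the cells of 3 to 5 pooled mice. The effects of the construct and of the loss of Nr4a1 cannot be told apart by this design, and the p-values below measure the spread between pools. Strain, age and the markers of the sort are not given in the sources used here. Whether fewer cells of one type or less RNA per cell lies behind a level cannot be told apart in these bulk samples.

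HSC are rare cells, found mainly in adult marrow, that keep all blood lineages supplied and are mostly at rest. NR4A1 and NR4A3 are orphan nuclear receptors of the steroid receptor superfamily, and they bind DNA elements that contain AGGTCA or the longer NBRE, AAAGGTCA. In blood they are known as brakes on the growth of stem and myeloid cells, and the comparison asks what HSC RNA looks like when Nr4a1 is deleted in animals that already lack Nr4a3.

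The libraries held 32863805, 41475747 and 42772261 counted reads in CDKO and 39111308, 36464747 and 42348692 in Control. A count of 0 therefore allowed 0.0701 to 0.0913 CPM, by library (3 counts, counting error only). Nr4a1, the floxed gene, had 8.52, 9.76 and 9.12 CPM in CDKO libraries, against 15.2, 13.4 and 12.9 CPM in Control libraries (log2 difference -0.55, limma adjusted p = 0.00204). It was lower in all 3 CDKO libraries, and a gene-level count does not separate removed from kept exons. Nr4a3 had no read in any of the 6 libraries. Of the 20 genes of an HSC identity list, all were read, and their summed level was 6911, 7054 and 6868 CPM in CDKO libraries, against 7344, 7624 and 7609 CPM in Control libraries.

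The members were genes of low level in both groups. Mean CDKO levels ran from 3.03 to 13.0 CPM with a median of 4.28 CPM, and mean Control levels from 0 to 0.496 CPM with a median of 0.224 CPM. By mean CDKO level, 37 members lay between 3 and 4 CPM, 17 between 4 and 5, 22 between 5 and 8, and 5 at or above 8 CPM. Per kilobase of exon, the median CDKO level of the members was 1.16 CPM per kb, against 7.54 CPM per kb over all tested genes. On that length-corrected scale the highest members were Sdcbp2 at 4.32, Jsrp1 at 4.01 and Wfdc2 at 3.52 CPM per kb, and the lowest was Creb5 at 0.139 CPM per kb. Of the 81 members, 77 (95.1%) were annotated as protein coding and 4 as long non-coding RNA, against 94.2% protein coding among tested genes. Median exon length was 4368 bases in members and 4281 bases in tested genes.

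All 81 members passed the low-level filter of the fit across genes and were called higher in CDKO by limma, among 13734 tested genes of which 66.2% were called in either direction and 31.1% higher. In all 81 the lowest CDKO library lay above the highest Control library, as it did in 33.4% of all tested genes. The rule itself used this contrast, so nothing is read from either count. A ratio of means could be given for 55 members, whose Control mean was at or above the floor of 3 counts in the shallowest Control library (0.0823 CPM). It had a median of 15.5 and ran from 6.40 for Tbx4 to 43.3 for Dll1, and to 61.7 for Aox4, whose Control mean was at the floor itself. For 5 members with no Control read the ratio is given as a lower bound against that floor, and for the other 21 no ratio is given.

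**Figure D1:**
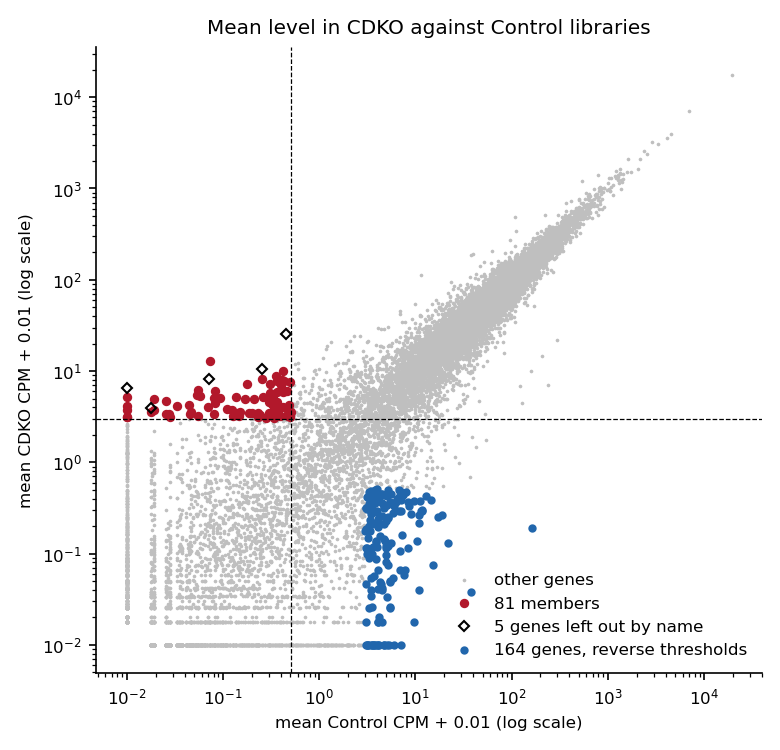
Mean CPM over 3 CDKO libraries (vertical axis, log scale) against mean CPM over 3 Control libraries (horizontal axis, log scale), with 0.01 CPM added for drawing; each point is a gene. The 81 members fill the corner above 3 CPM in CDKO and left of 0.5 CPM in Control (dashed lines), and 164 genes fill the opposite corner.

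The highest members by CPM stood far apart in the 2 groups. Zfp365, a zinc finger protein of the centrosome, had 12.7, 13.9 and 12.3 CPM in CDKO libraries, against 0, 0.192 and 0 CPM in Control libraries. Only 7 reads of it were counted in all of the Control libraries together. Car5b, a mitochondrial carbonic anhydrase, had 10.3, 9.35 and 10.6 CPM in CDKO libraries, against 0.0511, 0.987 and 0.189 CPM in Control libraries. Its Control reads came mostly from Control library 2, with 36 reads, against 2 and 8 in the other Control libraries. Col1a1, the main chain of type I collagen, had 9.40, 7.86 and 8.91 CPM in CDKO libraries, against 0.281, 0.411 and 0.354 CPM in Control libraries. Its 3 Control libraries lay close to each other.

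**Figure D2:**
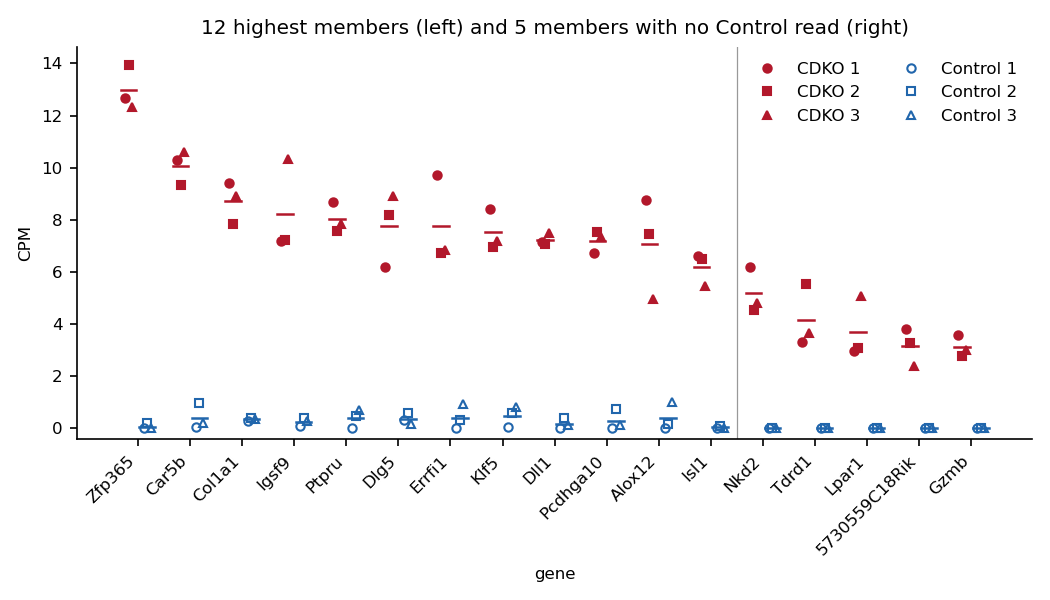
CPM per library (vertical axis, linear, from 0) for the 12 members with the highest mean CDKO level and the 5 members with no Control read; filled red symbols are CDKO libraries 1 to 3, open blue symbols Control libraries 1 to 3, and bars are group means. Every red point lies above every blue point of its gene, and the 5 genes at the right have all blue points at 0.

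Promoter windows of 300 bases, 250 before to 50 after an annotated transcription start, were available for 65 members from RefSeq (85 windows, GRCm38.p6, the build called mm10). They were searched on both strands for 7 short motifs, and each share is set beside that of all 32851 windows of the same length. The NBRE of NR4A receptors, AAAGGTCA, was in 0 member windows (1.51% of all windows), and its core AGGTCA, which lies inside the NBRE, was in 10 windows (11.8%, against 16.3% of all). The C/EBP letters TTGCNNAA were in 10 windows (11.8%, against 10.8%) and the interferon response element (ISRE) in 1 window (1.18%, against 3.44%). The AP-1 letters TGANTCA were in 10 windows (11.8%, against 7.81%), the cyclic AMP element TGACGTCA in 3 (3.53%, against 1.79%), and the E-box CACGTG in 12 (14.1%, against 7.15%). Windows of the same gene can overlap and were each counted, as for C/EBP letters in Fbxo27 and E-boxes in Fbln1 and Tdrd1. Member windows held a median of 13 CpG, against 19 in windows of tested genes and 7 in all windows. The cyclic AMP element and the E-box each hold a CpG. Their shares over windows of tested genes were not computed, so no excess is read from them. Their median GC content was 59.0%, against 60.3% for tested genes. These matches describe letters only and say nothing of a factor being bound.

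Shown here are the window of the member with the highest CDKO level, the 3 windows with a cyclic AMP element, and the only window with the ISRE. Each runs 5′ to 3′ on the gene's strand, and capitals mark matches of the motifs other than the AGGTCA core. In Zfp365 (chr10:67912613-67912912, minus strand) the capitals are an E-box that begins 41 bases before the start. In Ptpru (chr4:131838229-131838528, minus strand) and Errfi1 (chr4:150854820-150855119, plus strand, the second of 2 windows) they are a cyclic AMP element 41 and 51 bases before the start. In Creb5 (chr6:53287053-53287352, plus strand, the first of 2 windows) an E-box at 49 bases and a cyclic AMP element at 45 bases before the start overlap. In Pydc3 (chr1:173673415-173673714, plus strand) the first capitals are C/EBP letters at 205 bases and the second the ISRE at 58 bases before the start.
Zfp365: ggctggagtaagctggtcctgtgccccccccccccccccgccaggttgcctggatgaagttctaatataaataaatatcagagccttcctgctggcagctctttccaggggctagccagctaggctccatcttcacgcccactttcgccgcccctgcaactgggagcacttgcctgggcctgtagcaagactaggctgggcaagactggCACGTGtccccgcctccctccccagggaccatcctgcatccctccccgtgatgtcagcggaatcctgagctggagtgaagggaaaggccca
Ptpru: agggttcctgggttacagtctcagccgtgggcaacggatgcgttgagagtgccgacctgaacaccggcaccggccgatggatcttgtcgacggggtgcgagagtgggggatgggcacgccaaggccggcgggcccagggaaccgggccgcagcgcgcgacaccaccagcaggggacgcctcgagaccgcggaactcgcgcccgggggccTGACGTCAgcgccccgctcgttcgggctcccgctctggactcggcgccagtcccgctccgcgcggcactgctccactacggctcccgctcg
Errfi1: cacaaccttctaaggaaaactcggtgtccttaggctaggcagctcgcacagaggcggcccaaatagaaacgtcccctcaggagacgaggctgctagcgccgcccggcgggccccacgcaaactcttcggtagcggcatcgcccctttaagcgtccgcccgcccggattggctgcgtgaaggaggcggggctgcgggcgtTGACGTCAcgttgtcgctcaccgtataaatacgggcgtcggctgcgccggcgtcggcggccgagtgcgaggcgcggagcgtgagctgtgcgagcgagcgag
Creb5: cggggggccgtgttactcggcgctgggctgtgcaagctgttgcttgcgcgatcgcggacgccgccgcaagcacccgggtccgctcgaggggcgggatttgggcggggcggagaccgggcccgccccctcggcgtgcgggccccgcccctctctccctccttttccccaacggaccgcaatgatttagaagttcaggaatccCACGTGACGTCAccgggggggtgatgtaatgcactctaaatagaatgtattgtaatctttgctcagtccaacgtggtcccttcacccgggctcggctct
Pydc3: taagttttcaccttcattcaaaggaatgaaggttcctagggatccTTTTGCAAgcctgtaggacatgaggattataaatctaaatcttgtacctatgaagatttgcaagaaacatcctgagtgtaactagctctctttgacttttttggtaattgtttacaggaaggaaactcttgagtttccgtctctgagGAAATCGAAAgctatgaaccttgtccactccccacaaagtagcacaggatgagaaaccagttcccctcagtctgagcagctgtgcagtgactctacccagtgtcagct

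Among 14 surface receptors and adhesion molecules, mean CDKO levels ran from 3.19 to 8.24 CPM and mean Control levels from 0 to 0.496 CPM. Igsf9, an immunoglobulin-type adhesion molecule of synapses, had 7.18, 7.21 and 10.3 CPM in CDKO libraries, against 0.0767, 0.384 and 0.283 CPM in Control libraries. CDKO library 3 was the highest for it. Ptpru, a receptor tyrosine phosphatase whose promoter is printed above, had 8.70, 7.57 and 7.86 CPM in CDKO libraries, against 0, 0.494 and 0.708 CPM in Control libraries. Dll1, a ligand of Notch receptors, had 7.15, 7.06 and 7.50 CPM in CDKO libraries, against 0, 0.384 and 0.118 CPM in Control libraries. Its 3 CDKO libraries lay close together, and its ratio of means was 43.3. Lifr, the receptor chain for leukemia inhibitory factor, had 5.14, 4.77 and 6.57 CPM in CDKO libraries, against 0, 0.110 and 0.0236 CPM in Control libraries. Mrc2, an endocytic receptor for collagen, had 4.41, 6.27 and 4.07 CPM in CDKO libraries and a single read in all Control libraries (0, 0.0274 and 0 CPM). Both genes were thus read at the floor or below it in nearly every Control library.

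Lpar1, a receptor for lysophosphatidic acid, had 2.98, 3.09 and 5.07 CPM in CDKO libraries and no read in Control, at least 45.1-fold higher in CDKO. CDKO library 3 carried the highest level and 1 CDKO library lay under 3 CPM. Eda2r, a receptor of the tumor necrosis factor receptor family for the A2 form of ectodysplasin, had 3.04, 3.28 and 4.42 CPM in CDKO libraries, against 0.0767, 0.987 and 0.425 CPM in Control libraries. It had the highest Control mean of the set, just inside the threshold. Il20ra, the chain that cytokines of the interleukin-20 family use, had 3.16, 3.83 and 3.04 CPM in CDKO libraries, against 0, 0.0823 and 0.0236 CPM in Control libraries. The other receptors were Kiss1r (kisspeptin receptor, mean 4.59 CPM in CDKO and 0.296 CPM in Control), Cd300lb (an activating receptor of myeloid cells, 3.80 and 0.101 CPM), Cnr1 (a cannabinoid receptor, 3.20 and 0.136 CPM), Tlr5 (the flagellin receptor, 3.19 and 0.0457 CPM) and the adhesion molecule Igsf11 (3.35 and 0.0177 CPM). Pcdhga10, a clustered protocadherin, averaged 7.20 CPM in CDKO and 0.303 CPM in Control. It shares 44.8% of its exon bases with neighbours such as Pcdhga1, so its level is uncertain. Kiss1r overlaps the opposite-strand gene R3hdm4 over 6.41% of its exon bases, and R3hdm4 averaged 251 CPM in CDKO and 225 CPM in Control. The kit and counting are not stated to use strand, so reads of the overlap cannot be assigned.

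Of 3 channel, vesicle and membrane proteins, Sv2a, a synaptic vesicle glycoprotein, had 5.51, 6.56 and 6.15 CPM in CDKO libraries, against 0, 1.04 and 0.260 CPM in Control libraries. Scnn1a, the alpha subunit of the epithelial sodium channel, had 6.39, 4.94 and 5.35 CPM in CDKO libraries, against 0, 0.494 and 0.425 CPM in Control libraries. Control library 1 had no read of either gene. Jsrp1, a protein of the muscle calcium store, averaged 5.34 ± 0.274 CPM in CDKO and 0.319 ± 0.305 CPM in Control (SD, n = 3 each).

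Enzymes were the second largest group, with 15 members at mean CDKO levels of 3.10 to 10.1 CPM. Alox12, the arachidonate lipoxygenase of platelets, had 8.76, 7.47 and 4.98 CPM in CDKO libraries, against 0, 0.165 and 1.02 CPM in Control libraries. Aox4, an aldehyde oxidase, had 7.30, 4.05 and 3.88 CPM in CDKO libraries, against 0, 0.247 and 0 CPM in Control libraries. CDKO library 1 was the highest for both. Gcnt4, which branches O-linked glycans, had 7.21, 3.86 and 5.03 CPM in CDKO libraries and reads in 1 Control library only (0, 0 and 0.142 CPM). Agpat9, an enzyme of triglyceride synthesis now called Gpat3, had 6.15, 5.50 and 3.93 CPM in CDKO libraries, against 0, 0.329 and 0.0472 CPM in Control libraries, a ratio of means of 41.4. Gzmb, a protease of cytotoxic granules, had 3.59, 2.77 and 3.02 CPM in CDKO libraries and no read in Control, at least 38.0-fold higher in CDKO. By background these enzymes act in distinct pathways, from lipid mediators to cell killing.

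Further enzymes included Adcy4 (an adenylyl cyclase, mean 5.83 CPM in CDKO and 0.354 CPM in Control), L3hypdh (a hydroxyproline dehydratase, 5.77 and 0.301 CPM), Hyal1 (a hyaluronidase, 4.60 and 0.323 CPM) and Sult2b1 (a cholesterol sulfotransferase, 4.57 and 0.294 CPM). Elovl2 (elongation of polyunsaturated fatty acids) averaged 4.50 CPM in CDKO and 0.0731 CPM in Control. Sarm1 (an NAD hydrolase known from dying axons) averaged 4.32 CPM in CDKO and 0.328 CPM in Control. Gulo (the last step of vitamin C synthesis in mice), Pnp2 (a purine nucleoside phosphorylase) and Sult4a1 (a brain sulfotransferase) averaged 3.69, 3.32 and 3.10 CPM in CDKO, against 0.352, 0.450 and 0.0183 CPM in Control. Hyal1 shares 50.8% of its exon bases with Naa80, and Pnp2 is a close copy of Pnp, so their levels depend on how shared reads were counted.

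Of 6 secreted and matrix proteins, Col1a1 is given above. Bmper, which binds bone morphogenetic proteins outside the cell, had 3.89, 4.58 and 4.40 CPM in CDKO libraries, against 0, 0.0548 and 0.0472 CPM in Control libraries. Prelp, a leucine-rich matrix proteoglycan, had 4.50, 3.54 and 4.40 CPM in CDKO libraries, against 0, 0 and 0.0708 CPM in Control libraries. Ism1, a secreted protein known to restrain vessel growth, had 3.59, 3.38 and 3.55 CPM in CDKO libraries and 1 read in all Control libraries. For these 3 genes no Control library lay above the floor. Fbln1, a fibulin, averaged 3.70 CPM in CDKO and 0.114 CPM in Control, and Wfdc2, a small secreted protein of epithelia, averaged 4.02 CPM in CDKO and 0.416 CPM in Control.

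Of 8 transcription and chromatin genes, Klf5, a Krüppel-like factor, had 8.43, 6.97 and 7.20 CPM in CDKO libraries, against 0.0511, 0.603 and 0.826 CPM in Control libraries. Isl1, a LIM homeodomain factor of heart and motor neuron development, had 6.60, 6.49 and 5.47 CPM in CDKO libraries, against 0.0256, 0.110 and 0 CPM in Control libraries. Klf5 was near the upper Control threshold, whereas Isl1 had 5 Control reads in all. Bhlhe41, a repressor of the circadian clock, had 4.63, 4.00 and 1.85 CPM in CDKO libraries, against 0, 0.411 and 0.260 CPM in Control libraries. Its highest CDKO library was 2.50 times its lowest, the widest span of any member. Arntl2, a clock activator related to BMAL1, had 3.83, 3.52 and 3.02 CPM in CDKO libraries, against 0.0511, 0.192 and 0.638 CPM in Control libraries. Tbx4, a T-box factor of the hind limb, had 3.32, 3.52 and 2.52 CPM in CDKO libraries, against 0, 0.165 and 1.30 CPM in Control libraries. That last library holds 55 of its 61 Control reads. Creb5, a factor that binds cyclic AMP elements, averaged 3.47 CPM in CDKO and 0.176 CPM in Control, Stox2 3.81 and 0.332 CPM, and the zinc finger gene Zfp459 4.99 and 0.199 CPM.

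The 16 signalling, scaffold and cytoskeleton genes formed the largest group. Errfi1, which binds and inhibits the epidermal growth factor receptor, had 9.71, 6.73 and 6.83 CPM in CDKO libraries, against 0, 0.329 and 0.921 CPM in Control libraries. Dlg5, a scaffold of cell junctions, had 6.21, 8.17 and 8.93 CPM in CDKO libraries, against 0.307, 0.603 and 0.165 CPM in Control libraries. CDKO library 1 was the highest for Errfi1 and the lowest for Dlg5. Nkd2, which binds Dishevelled and holds back Wnt signalling, had 6.21, 4.53 and 4.79 CPM in CDKO libraries and no read in Control. It was at least 62.9-fold higher in CDKO, the highest lower bound among the 5 members with no Control read. Pmaip1, the NOXA protein that binds MCL1 and favours cell death, had 3.89, 2.85 and 2.81 CPM in CDKO libraries, against 0, 0.357 and 0 CPM in Control libraries. Arc, a neuronal immediate early gene, had 3.83, 2.87 and 3.93 CPM in CDKO libraries, against 0, 0.165 and 0.921 CPM in Control libraries.

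The remaining signalling members lay between 3.21 CPM for Fam83g and 6.04 CPM for Sdcbp2 in their CDKO means. They included Strip2 (a subunit of a phosphatase complex, mean 5.03 CPM in CDKO and 0.0708 CPM in Control), Chn1 (which turns off Rac, 3.56 and 0.0366 CPM), Rasl11a (a small GTPase, 3.38 and 0.0706 CPM), Rassf8 (a Ras association domain protein, 3.48 and 0.192 CPM) and Phlda1 (3.59 and 0.474 CPM). The plakin gene Eppk1 averaged 3.51 CPM in CDKO and 0.140 CPM in Control. Fbxo27, a ubiquitin ligase subunit that binds glycoproteins, averaged 4.90 CPM in CDKO and 0.159 CPM in Control. D10Bwg1379e, now called Arfgef3, averaged 5.87 CPM in CDKO and 0.415 CPM in Control.

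Germ line and cilium genes numbered 7. Tdrd1, which works with PIWI proteins in the germ line, had 3.32, 5.55 and 3.65 CPM in CDKO libraries and no read in Control, at least 50.7-fold higher in CDKO. Dazl, an RNA-binding protein of germ cells, had 4.44, 2.63 and 4.89 CPM in CDKO libraries, against 0, 0.110 and 0.0708 CPM in Control libraries. CDKO library 2 was the highest for Tdrd1 and the lowest for Dazl. Ccdc135, now called Drc7 and part of the motile cilium, had 3.10, 5.81 and 2.36 CPM in CDKO libraries and 1 read in all Control libraries. Rnf32, a testis gene, had 5.90, 4.05 and 2.88 CPM in CDKO libraries, against 0, 0.165 and 1.25 CPM in Control libraries. Control library 3 gave 53 of the 59 Control reads of Rnf32. Spin2c, Ribc1 and Spag6 averaged 4.57, 4.51 and 4.33 CPM in CDKO, against 0.357, 0.315 and 0.314 CPM in Control.

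Pydc3, a member of the interferon-inducible p200 family now called Ifi208, had 8.37, 4.46 and 5.40 CPM in CDKO libraries, against 0, 0.219 and 0 CPM in Control libraries. The family holds close copies, so its reads may be shared with them. 5730559C18Rik, now called Inava and known from innate immune signalling, had 3.80, 3.28 and 2.41 CPM in CDKO libraries and no read in Control, at least 38.5-fold higher in CDKO. The last 10 members are non-coding or have no role given here. They averaged from 3.03 CPM for Gm15915 to 5.18 CPM for Skida1 in CDKO, and from 0.0157 to 0.461 CPM in Control. Among them 4932435O22Rik was the steadiest, at 4.59, 4.73 and 4.68 CPM in CDKO libraries, against 0, 0 and 0.0472 CPM in Control libraries. BC051537 overlaps H2-Oa on the other strand over 16.6% of its exon bases, and 6430562O15Rik overlaps Mrps27 over 8.47%, so their reads cannot be assigned to a strand. The same limit holds for other members that overlap opposite-strand exons. Among them were Phlda1 (33.0% of exon bases), 5730559C18Rik (32.0%), Agpat9 (30.0%), Dll1 (20.5%) and Bhlhe41 (19.0%). The genes they overlap there are not in the deposited table, so their levels are not known.

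**Figure D3:**
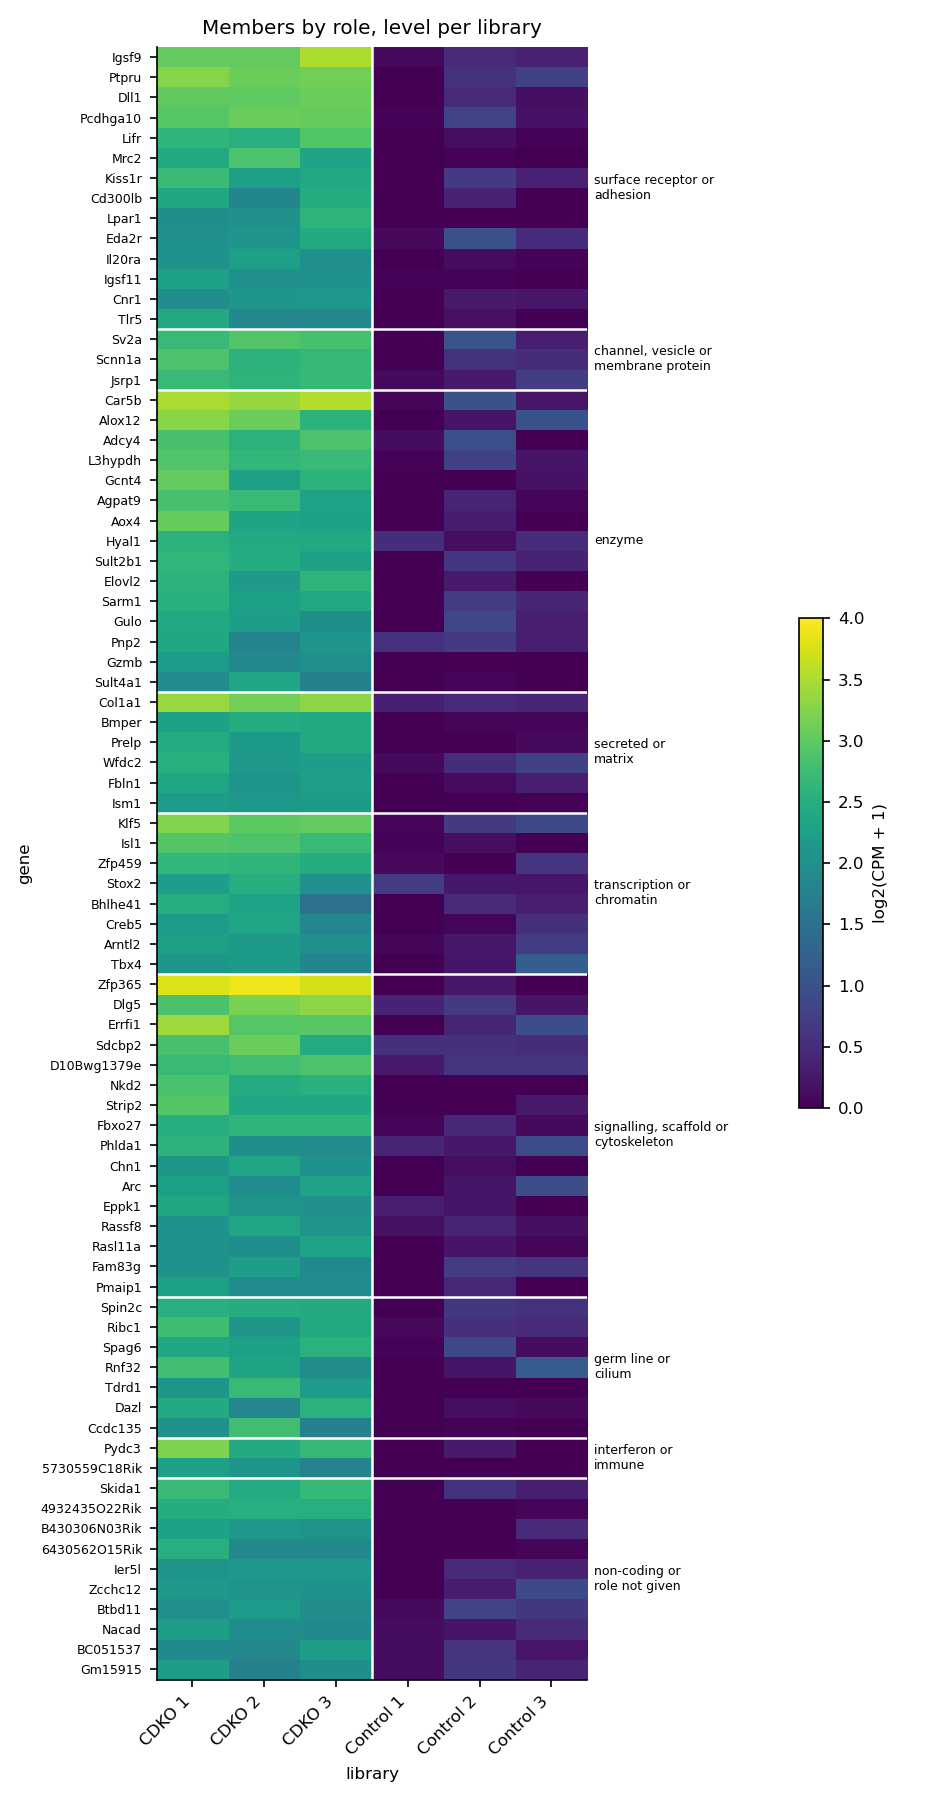
Level of each of the 81 members, log2(CPM + 1) by colour from 0 to 4, in the 3 CDKO libraries (left) and 3 Control libraries (right), with genes in rows grouped by role and sorted by mean CDKO level. The CDKO columns are lighter throughout, and among the Control columns library 1 is the darkest, with no read of 51 members.

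The thresholds were on means, and single libraries crossed them. In 56 members all 3 CDKO libraries reached 3 CPM, and in 25 at least 1 did not (4 members in CDKO library 1, 13 in library 2 and 16 in library 3). In 48 members all 3 Control libraries stayed under 0.5 CPM, and in 33 at least 1 did not (1 member in Control library 1, 20 in library 2 and 16 in library 3). Only Sv2a, Alox12, Rnf32 and Tbx4 reached 1 CPM in a Control library. Just inside the CDKO threshold lay Gm15915, BC051537 and Sult4a1, with means of 3.03, 3.05 and 3.10 CPM in CDKO. Just outside it lay, among others, Fam13a and Proser2, with 2.97 and 2.96 CPM in CDKO. Just inside the Control threshold lay Eda2r, Klf5 and Tbx4, with means of 0.496, 0.494 and 0.488 CPM in Control, and just outside it C4b, Asb4 and Tspan17, with 0.508, 0.514 and 0.515 CPM in Control. The genes on either side of each line thus had nearly the same mean there.

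The libraries did not share the low Control reads evenly. Summed over the 81 members, the level was 414, 371 and 369 CPM in CDKO libraries, against 4.78, 25.4 and 22.9 CPM in Control libraries. Control library 1 had no read of 51 members, library 2 of 13 and library 3 of 20. The highest Control sum was 5.32 times the lowest. Over 3824 other genes under 0.5 CPM in Control the same ratio was 1.92, and over 543 genes of 0.5 to under 1 CPM in Control, whose sums were 316, 419 and 431 CPM, it was 1.36. The 164 genes with the thresholds reversed gave sums of 11.7, 53.5 and 34.2 CPM in CDKO libraries, a ratio of 4.58 between highest and lowest. Library 1 was therefore the lowest of its group in both gene sets, and what moves with the library number was not tested.

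Within the CDKO group, 44 members (54.3%) were highest in library 1, 19 in library 2 and 18 in library 3. Among 1860 other genes in the same CDKO range, 28.7% were highest in library 1. The median coefficient of variation over the CDKO libraries was 16.5% in members and 13.2% in those other genes. For 3 members the highest CDKO library was over 2 times the lowest, namely Bhlhe41 (2.50), Ccdc135 (2.46) and Rnf32 (2.05). Aox4 (1.88), Pydc3 (1.88) and Gcnt4 (1.87) came next.

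**Figure D4:**
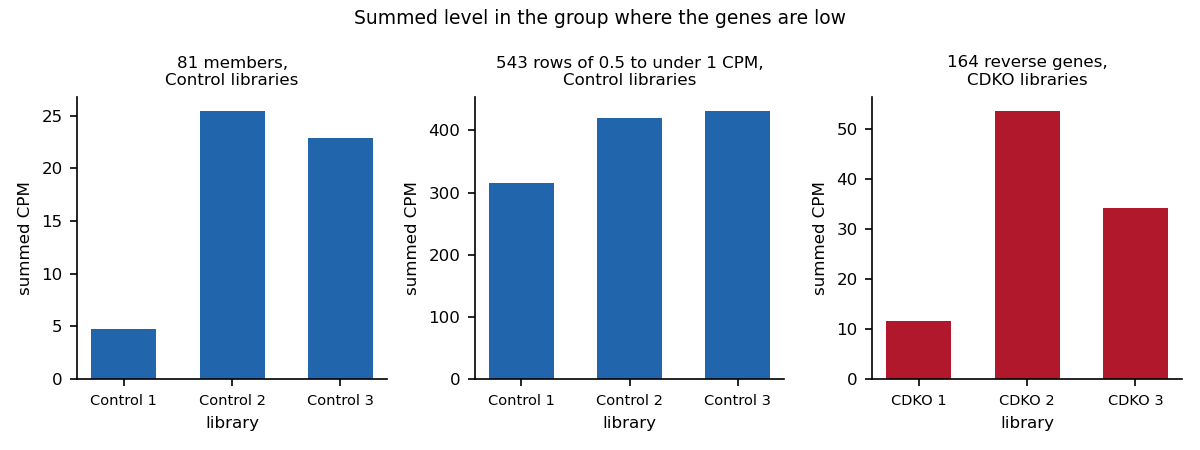
Summed CPM per library (vertical axes, linear, from 0) in the group where each gene set is low: 81 members and 543 genes of 0.5 to under 1 CPM over the Control libraries (blue), and 164 reverse genes over the CDKO libraries (red). Library 1 is the lowest in each panel, and the highest bar is 5.32 times the lowest for the members and 1.36 times for the genes of 0.5 to under 1 CPM.

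To read the set in a library that had no part in choosing it, the rule was applied to 5 libraries and its genes were read in the sixth. Without CDKO library 1 the rule chose 77 genes, and 67 of them (87.0%) had at least 3 CPM in that library. Without CDKO library 2 it chose 82, of which 63 (76.8%) reached 3 CPM there, and without CDKO library 3 it chose 86, of which 64 (74.4%) did. Most genes chosen on the other libraries were thus at or over the threshold in the library left out. The same share over genes chosen by the CDKO threshold alone was not computed, so nothing particular to the set is read from it. Without Control library 1 the rule chose 63 genes, and 62 (98.4%) were under 0.5 CPM in it. Without Control library 2 it chose 96, of which 57 (59.4%) were under 0.5 CPM there, and without Control library 3 it chose 100, of which 60 (60.0%) were. The Control threshold was met less fully in Control libraries 2 and 3 than in library 1, and the median level of the chosen genes there was 0.398 and 0.342 CPM. The same share over genes chosen by the Control threshold alone was not computed either. Of 3824 other genes under 0.5 CPM in Control, 2730 had no read in Control library 1, 1826 in library 2 and 2008 in library 3. The order is thus not particular to the set.

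Genes that work with the members or are relatives of them, 44 in all, were listed after the members had been seen, and they describe the surroundings of the set. Of these 36 were tested, and by limma 12 were called higher and 17 lower in CDKO, while 31.1% and 35.2% of all tested genes were. The members' co-receptors and ligands did not follow one direction. For Lifr, the shared receptor chain Il6st had 50.6, 53.9 and 55.5 CPM in CDKO libraries, against 87.5, 82.5 and 82.5 CPM in Control libraries, and it fell (log2 difference -0.65, limma adjusted p = 4.16e-06). Osmr, the sister chain for oncostatin M, had 0, 0.434 and 0 CPM in CDKO libraries, against 2.74, 3.10 and 1.68 CPM in Control libraries (log2 difference -1.61, limma adjusted p = 3.99e-05). Its call was lost with DESeq2 (adjusted p = 0.0581), and over all alternatives the adjusted p ran from 1.02e-05 to 0.0581. Lifr and Osmr thus stood in opposite order between the groups.

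Eda, the ligand gene whose A2 form EDA2R binds, had 0.730, 1.52 and 0.795 CPM in CDKO libraries, against 14.9, 11.5 and 12.9 CPM in Control libraries (log2 difference -2.82, limma adjusted p = 3.79e-07). For Dll1, its receptor Notch2 fell (24.8 ± 4.10 CPM in CDKO and 48.5 ± 3.75 CPM in Control, SD, n = 3 each, log2 difference -0.95, limma adjusted p = 2.27e-05). Notch1 had a log2 difference of 0.05 (limma adjusted p = 0.591), at 43.4 CPM in CDKO and 41.8 CPM in Control. Another Notch ligand, Jag1, averaged 5.63 CPM in CDKO and 15.9 CPM in Control (log2 difference -1.60, and -1.02 without CDKO library 1). Its call (limma adjusted p = 0.00390) was lost with DESeq2 (adjusted p = 0.0559, range over alternatives 0.000163 to 0.0559). The second cannabinoid receptor, Cnr2, had 32.8, 33.0 and 26.2 CPM in CDKO libraries, against 5.09, 6.44 and 3.87 CPM in Control libraries, and it rose (log2 difference 2.38, limma adjusted p = 5.79e-07). Tyrobp, the adaptor through which activating CD300 receptors signal, fell (9.78 ± 1.08 CPM in CDKO and 18.4 ± 1.88 CPM in Control, SD, n = 3 each, log2 difference -0.85, limma adjusted p = 0.000113). For Il20ra, the partner chain Il20rb was not called, nor was Il10rb, its partner for a cytokine known in humans (log2 differences -0.33 and 0.06, limma adjusted p = 0.233 and 0.451).

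Relatives of several members were lower where the member was higher. Alox5, the lipoxygenase of leukotriene synthesis, had 0.243, 1.30 and 1.01 CPM in CDKO libraries, against 22.3, 16.6 and 17.4 CPM in Control libraries (log2 difference -3.45, limma adjusted p = 3.89e-07). It ran opposite to Alox12. Mrc1, the mannose receptor related to Mrc2, had 0.0304, 0.796 and 0.631 CPM in CDKO libraries, against 10.4, 5.02 and 4.84 CPM in Control libraries (log2 difference -2.35, limma adjusted p = 2.07e-05). Piwil2, a PIWI protein that works with Tdrd1 in the mouse germ line, had 0, 0.0482 and 0.0701 CPM in CDKO libraries, against 5.96, 4.33 and 5.95 CPM in Control libraries (log2 difference -2.61, limma adjusted p = 3.17e-07). No library of one group overlapped the other for these 3 genes. Ddx4, a germ cell helicase, rose (3.75 ± 0.769 CPM in CDKO and 2.02 ± 0.240 CPM in Control, SD, n = 3 each, log2 difference 0.64, limma adjusted p = 0.00474).

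Other related genes rose. Npas2, a clock activator that can pair with BMAL proteins, had 4.50, 4.70 and 4.61 CPM in CDKO libraries, against 0.384, 0.0823 and 1.91 CPM in Control libraries (log2 difference 1.78, limma adjusted p = 0.000239). Clock, an alternative to Npas2 as partner of BMAL proteins, fell (18.4 ± 1.92 CPM in CDKO and 39.7 ± 1.53 CPM in Control, SD, n = 3 each, log2 difference -1.07, limma adjusted p = 3.05e-06). Bhlhe40, a relative of Bhlhe41, was called lower (log2 difference -0.57, limma adjusted p = 0.0162), but not without CDKO library 1 (0.0647), CDKO library 2 (0.0526) or Control library 1 (0.0593), nor with no filter (0.0564), with a range over alternatives of 0.000604 to 0.0647. Arntl, the gene of BMAL1, had a log2 difference of -0.16 (limma adjusted p = 0.0363), and leaving out any library except Control library 3 ended its call (adjusted p from 0.0558 to 0.147). So did TMM scaling (0.0553), quantile normalization (0.0743), edgeR (0.0574) and DESeq2 (0.0665), and the range over alternatives for Arntl was 0.0313 to 0.147. Klf4 had 4.20, 4.12 and 4.28 CPM in CDKO libraries, against 0.793, 1.34 and 1.09 CPM in Control libraries (log2 difference 1.33, limma adjusted p = 1.85e-05), and Klf2 was not called (log2 difference 0.09). Gzma, a sister protease of Gzmb, had 10.8, 6.80 and 7.86 CPM in CDKO libraries, against 0.818, 0.713 and 0.496 CPM in Control libraries (log2 difference 2.48, limma adjusted p = 8.03e-07). Prf1, the pore former that delivers granzymes, was not called by limma (0, 0.0964 and 1.43 CPM in CDKO libraries, against 0.0256, 0.0548 and 0.0236 CPM in Control libraries, adjusted p = 0.203), and its range over alternatives was 0.0326 (DESeq2) to 0.313.

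For the remaining members with listed partners, Bmp4, a ligand that Bmper binds, averaged 6.52 ± 1.71 CPM in CDKO and 3.09 ± 0.889 CPM in Control (SD, n = 3 each, log2 difference 0.87, limma adjusted p = 0.00301). Col1a2, the second chain of type I collagen, fell (32.3 ± 1.98 CPM in CDKO and 45.7 ± 3.99 CPM in Control, SD, n = 3 each, log2 difference -0.49, limma adjusted p = 0.000374). Col1a1 lay higher in CDKO and Col1a2 lower. The sodium channel subunits Scnn1b and Scnn1g, which join Scnn1a in the epithelial channel, were under the filter, with a mean of 0.0304 and 0 CPM in CDKO and 0 CPM in Control for both. Egfr and Erbb2, the receptors Errfi1 inhibits, averaged 0 and 0.0359 CPM in CDKO, against 0.0183 and 0 CPM in Control. Kiss1, the ligand of Kiss1r, had no read in any library.

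**Figure D5:**
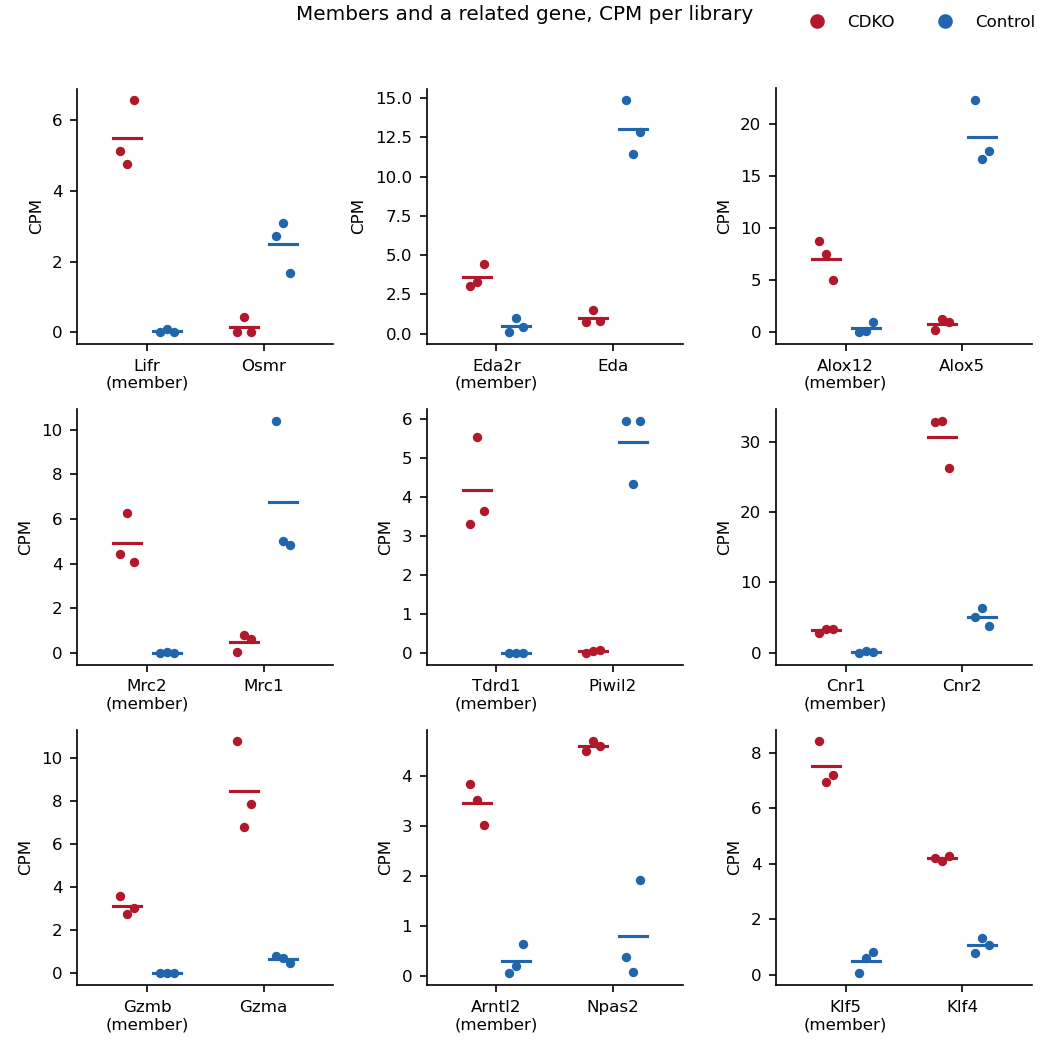
CPM per library (vertical axes, linear) for 9 members, each beside a related gene that is no member, in CDKO libraries (red, left) and Control libraries (blue, right); bars are group means. Osmr, Eda, Alox5, Mrc1 and Piwil2 lie lower in CDKO while the member lies higher, and Cnr2, Gzma, Npas2 and Klf4 lie higher in CDKO with the member.

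The members were spread over the genome. They lay on 19 autosomes and the X chromosome, from 1 member on chromosomes 3, 12, 16 and 19 to 9 on chromosome 11, and none lay on Y. Another member within 1000 kb was found for 11 members (13.6%), and a member lay that near for 12.6% of tested genes. The closest pair was Rassf8 and Bhlhe41 on chromosome 6, 112 kb apart by their lowest coordinates, with Arntl2 936 kb further on. Nearest to the engineered loci were Lpar1 at 10.4 Mb from Nr4a3, Scnn1a at 12.2 Mb from Gt(ROSA)26Sor and Fbln1 at 16.0 Mb from Nr4a1.

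The genes next to the members were no part of the rule. Some, such as Pcdhgb6 beside Pcdhga10 and Hyal3 beside Hyal1, share exon bases with the member, so their reads may not be separate. Distances were taken between the lowest coordinates of the genes, whatever their strand, and so not always between transcription starts. Counting the nearest gene on either side within 100 kb, 69 tested genes adjoined 48 members. Of these, 25 (36.2%) were called higher and 17 (24.6%) lower in CDKO by limma, against 31.1% and 35.2% of all tested genes, and their median log2 difference was 0.06, against -0.02 over all tested genes. Several neighbours rose. Pyhin1, another gene of the p200 family, 42.8 kb from Pydc3, had 3.99, 4.24 and 4.82 CPM in CDKO libraries, against 0.793, 0.932 and 0.779 CPM in Control libraries (log2 difference 1.54, limma adjusted p = 4.77e-06). Cd300c, 33.3 kb from Cd300lb, had 1.73, 1.40 and 1.05 CPM in CDKO libraries and no read in Control (limma adjusted p = 3.51e-05). Il22ra2, a soluble receptor for interleukin-22 that adjoins Il20ra, rose too (log2 difference 1.11, limma adjusted p = 0.000178).

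Other neighbours fell beside a member. Slc46a1, a folate transporter 4.57 kb from Sarm1, had 0.0913, 0.868 and 1.66 CPM in CDKO libraries, against 17.7, 16.3 and 16.3 CPM in Control libraries (log2 difference -3.34, limma adjusted p = 1.25e-06). AI607873, on the other side of Pydc3 from Pyhin1, had 0.0304, 0.313 and 0.397 CPM in CDKO libraries, against 4.12, 5.24 and 4.23 CPM in Control libraries (log2 difference -2.15, limma adjusted p = 1.38e-06). Pydc3 thus lay between a gene that rose and a gene that fell. Cd300a, an inhibitory receptor on the other side of Cd300lb, fell (log2 difference -0.84, limma adjusted p = 2.04e-05), as did Pigt beside Wfdc2 (log2 difference -1.31, limma adjusted p = 1.14e-07) and Trip13 beside Nkd2 (log2 difference -1.06, limma adjusted p = 1.83e-06).

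Marker lists of other cell types show what moved in the same libraries. Only Col1a1 and Gzmb are on any of the 15 lists. Over all tested genes, limma called 31.1% higher and 35.2% lower, and the counts of each list stand beside those shares. Of the marrow stroma and bone list, 16 genes were in the table and 9 tested, with 3 called higher and 3 lower by limma, and the summed level was 135, 136 and 135 CPM in CDKO libraries, against 229, 226 and 221 CPM in Control libraries. Runx2 carried most of that gap, and without it the sums were 64.0, 66.6 and 68.5 CPM in CDKO libraries, against 71.4, 83.0 and 80.6 CPM in Control libraries. Besides Col1a1, the genes called higher were Col3a1 (0.548, 0.723 and 1.38 CPM in CDKO libraries, no read in Control, limma adjusted p = 0.00102) and Ibsp, a protein of bone matrix (2.53, 2.39 and 1.75 CPM in CDKO libraries, against 0, 0 and 0.590 CPM in Control libraries, limma adjusted p = 7.73e-05). The Ibsp call was lost with DESeq2 (adjusted p = 0.127, range over alternatives 1.49e-05 to 0.127). Those called lower were Runx2, Col1a2 and Pdgfra. Of these, Pdgfra had no read in CDKO libraries and 6.09, 4.80 and 5.03 CPM in Control libraries. Lum and Sp7, which mark fibroblasts and bone-forming cells, were at 0 in all libraries. The part of such cells in the level of Col1a1 was not tested. Of the NK and cytotoxic T cell list, 19 genes were in the table and 11 tested, with 7 called higher and 0 lower, and the sum was 109, 99.5 and 108 CPM in CDKO libraries, against 64.9, 62.2 and 65.6 CPM in Control libraries. The genes called higher were Gzmb, Gzma, Il2rb, Cd4, Klrd1, Klrb1c and Nkg7. Among them, Il2rb averaged 1.32 CPM in CDKO and 0.00787 CPM in Control, Cd4 2.67 and 0.225 CPM, and Klrd1 0.811 and 0.100 CPM. Klrb1c averaged 22.2 CPM in CDKO and 13.0 CPM in Control, and Nkg7 58.0 and 43.5 CPM, and they carried most of the sum in both groups. Tested but not called were Prf1, Klrk1 (0.252 CPM in CDKO and 0.518 CPM in Control), Ncr1 (2.41 and 1.79 CPM) and Ccl5 (4.91 and 4.41 CPM). Eomes, Cd3d, Tbx21 and Fasl were under the filter. Tbx21 and Fasl each had 1.05 CPM in CDKO library 3 and no read in the other CDKO libraries. Cd3e, Cd3g, Cd8a and Ifng were at 0 in all libraries. The part of such cells in the levels of Gzmb and Gzma was not tested.

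On the lists that hold no member, limma called 32 of 34 tested interferon response genes higher and 0 lower. It called 11 of 13 neutrophil genes, 8 of 9 basophil, mast cell and eosinophil genes and 7 of 9 erythroid genes lower, with 0 higher on these 3 lists. Of 13 megakaryocyte genes 9 were higher and 3 lower, of 12 endothelial genes 7 and 2, of 16 macrophage and monocyte genes 7 and 7, and of 20 HSC identity genes 6 and 10. Of 7 B cell genes 1 was higher and 4 lower, of 7 dendritic cell genes 1 and 5, of 6 epithelial genes 1 and 2, of 7 neuron and glia genes 0 and 6, and of 5 sex-linked genes 1 and 1. Over all tested genes 31.1% were called higher and 35.2% lower, so nothing is read from list counts near those shares. The part of these cell types in the levels of the members was not tested.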

How the data were processed

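RNA from 6 libraries of sorted mouse HSC was used, 3 CDKO and 3 Control, each a pool of mice. Per the labels, RNA was extracted with micro columns, amplified with SMARTer Ultra Low Input v3 chemistry and made into libraries with Nextera XT. The build mm10 and the tools TopHat2, HTSeq and DESeq2 appear, versions not given, per the submitters' processing notes, and the gene annotation is not given in the sources used here. The deposited values per library are CPM, scaled to each library's total. All 88030 values above 0 were whole multiples of 1 read to within 0.01 read (100%), so whole reads were recovered. The deposited baseMean is a signal averaged after size factor scaling by the authors. The deposited log2 fold changes, which set Control over CDKO, the deposited stat score and the deposited p-values were not used for any result here.

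Members were found by the rule on mean CPM. The members, the marker lists, the roles and the motifs were chosen with earlier results of these data known, and the related genes after the members had been seen. The naming rule took the highest members overall and per role, those nearest the thresholds, those with no Control read and those on a list. Further members and the related genes were named after their values were seen. Genes with a mean of at least 10 reads were tested with limma 3.58.1 (R 4.3.3) on log2(CPM + 1), with a mean-variance trend, CDKO minus Control, all 6 libraries and no other term. Calls needed a Benjamini-Hochberg adjusted p under 0.05, two-sided, over all 13734 tested genes. The log2 differences are on the log2(CPM + 1) scale, which understates changes of low genes. Alternatives were other filters, scalings, pseudocounts and thresholds, a block on replicate number, the count tools edgeR 4.0.16 and DESeq2 1.42.0 run on whole reads, and leaving out each library. Positions, names and promoter windows come from RefSeq on GRCm38.p6. Of the members, 76 matched by symbol and 5 by an older symbol. Exon lengths and overlaps come from GENCODE. The labels name no batch, and the shared replicate numbers are not said to mark litters or days.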

Additional observations from a re-analysis of the deposited data

How the results depend on the processing

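The set of 81 members followed its thresholds. It was the same under TMM scaling and under DESeq2 size factors (81 each). It held 33 genes when every library had to meet its threshold, 43 with a Control mean under 0.25 CPM, 148 with a Control mean under 1 CPM, 139 with a CDKO mean of at least 2 CPM and 27 with a CDKO mean of at least 5 CPM. With 1 library left out it held 63 to 100 genes. Of 51 tested genes next to members within 50 kb, 20 were called higher and 11 lower, and of 96 within 500 kb, 36 were higher and 26 lower. Over all genes, limma called 8255 to 8708 with 1 library left out, edgeR 8789 and DESeq2 8791, against 9097. With replicate number as a block, 9242 genes were called (4348 higher and 4894 lower) and 41 genes next to members (25 higher and 16 lower). Deviations of same-numbered libraries correlated at 0.0518, 0.0483 and -0.0120, and those of differently numbered libraries at -0.0651 to 0.0264. The labels do not call the numbers pairs, and the main fit did not take them as such. Whether same-numbered libraries share an effect was not tested. Over 275 further genes and all their alternatives, 3924 of 4081 results kept their side of the threshold, 124 lost the call and 33 gained it. Among results called in the main fit or the alternative, 0 changed direction. A change of sign with no call in either fit was counted as kept. Low counts limit the Control side most. The 81 members had 187, 928 and 970 reads in all in the Control libraries, so single Control values rest on few reads. These counts did not follow depth, as Control library 1 held 39111308 counted reads and Control library 2 held 36464747. Genes with a read numbered 14154, 15115 and 14926 in Control libraries, and 13834, 14804 and 15197 in CDKO libraries. What sets library 1 apart was not tested.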
